A study of Arabidopsis thaliana with 14 samples.

Results

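The genes described here are Arabidopsis thaliana plastid genes for gene expression and for other tasks, among them the photosystem I assembly factors ycf3 and ycf4. The genes were taken as the probe sets that name a single gene, that gene being plastid-encoded. Symbols of photosystem, cytochrome b6f, ATP synthase and NDH subunits and rbcL were left out. The rule used names only and no measured value, though it was chosen with earlier results of these data known. It gave 26 probe sets, each for a different gene, of 69 that name 1 plastid gene and of 22810 on the array. The 26 comprise 4 subunits of the plastid-encoded RNA polymerase, 8 proteins of the small and 7 of the large subunit of the plastid ribosome, and matK, clpP, accD, ccsA, cemA, ycf3 and ycf4.

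The study compared parts of developing seeds whose linear-cotyledon embryos measured 175 ± 11 µm. Tissue of the ecotype Ws-0 was fixed, embedded in paraffin and cut out by laser microdissection, so that all groups share genotype, stage and treatment. Seeds came from siliques 1.6 to 1.9 cm long on plants of 38 to 46 days kept in continuous light. The 7 groups are the embryo proper, the micropylar endosperm (next to the embryo), the cellularized endosperm (the peripheral region), the chalazal endosperm (at the opposite pole), the seed coat at the chalazal pole and over the rest of the seed (chalazal and general seed coat), and intact whole seeds, with 2 biological replicates each and 14 arrays in all. Embryo and endosperm are filial tissues and the seed coat is maternal. The labels do not say how many plants or seeds went into a replicate, so a p-value covers no more than the spread among these samples, which may be technical, and 2 arrays per group limit the precision. For the micropylar arrays 1 label field calls the tissue whole seeds, against the title and source name, which were followed here. The samples of the micropylar endosperm and of whole seeds are numbered apart from the others. What this numbering stands for is not known here, so an effect tied to it cannot be told apart from the compartment.

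Plastids carry a small genome of bacterial descent. Its rpoA, rpoB, rpoC1 and rpoC2 genes encode the core of a bacterial-type RNA polymerase that transcribes most photosynthesis genes, whereas a nuclear-encoded, phage-type polymerase transcribes several housekeeping genes, among them rpoB and accD. The rps and rpl genes encode proteins of the plastid ribosome, which is completed by proteins imported from the cytosol. In Arabidopsis the embryo turns green while it fills with oil, and plastids both photosynthesise and make fatty acids during this phase.

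All 26 genes were measured well above the bulk of the array: each stood at or above the array median on all 14 arrays, and all 26 entered the tests. The median signal of an array ranged from 106.5 to 183, while the median of the 26 genes ranged from 2700 on a chalazal seed coat array to 12320 on a micropylar endosperm array. The 26 genes made up 1.74% and 1.82% of the summed signal on the embryo arrays and 1.94% and 1.89% on the micropylar arrays. On the chalazal seed coat arrays they made up 0.63% and 0.68%. Replicates correlated at 0.918 to 0.975 over the 26 genes on the log2 scale, and the widest gap between replicates was 2.94-fold, for rpl33 in the chalazal seed coat.

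Of 30 marker loci listed for the compartments 10 had a probe set of their own, 3 for the embryo, 4 for the endosperm and 3 for the seed coat. YAB3, a transcription factor of lateral organs, read 2331 and 2486 in the embryo and at most 93.5 on any other compartment array, including 26.8 and 10.6 in the micropylar endosperm. DFR, an enzyme of seed coat tannin synthesis, read 13577 and 12692 in the chalazal and 7102 and 5346 in the general seed coat, with 742 and 544 in the micropylar and 823 and 869 in the chalazal endosperm. The sugar exporter SWEET11 was high in the cellularized (9126 and 13294) and micropylar endosperm (4165 and 5869) and low in the chalazal endosperm (9.2 and 141). VEX1, listed here among the endosperm markers, read 1362 and 1474 in the micropylar endosperm, 1109 and 546 in the embryo, and elsewhere among the compartments no more than 208. AGL62 and IKU2, regulators of early endosperm, read at most 59.5 and 57.8 on any compartment array. The embryo markers summed to 2978 and 3369 on the embryo arrays and to 19.4 to 184 on the other compartment arrays. The seed coat markers summed to 7395 to 15910 on the seed coat arrays and to 171 to 1477 elsewhere among the compartments, a sum carried by DFR and BAN. The remaining seed coat marker, TT15, read 177 to 334 on the seed coat arrays and 141 to 591 on the other compartment arrays. It was called in neither part, with log2 changes of -0.19 in the chalazal (adjusted p = 0.785) and -0.68 in the general seed coat (adjusted p = 0.305). The endosperm markers summed to 39.7 and 209 in the chalazal endosperm, below the 1282 and 1107 of the chalazal seed coat. Over the compartment arrays outside the endosperm they summed to 214 to 1594, so this list did not mark the chalazal endosperm. The part of the VEX1 signal's source in the embryo values was not tested. The 3′ to 5′ signal ratio of the GAPDH control probe sets, a sign of RNA integrity and amplification, was 13.7 and 8.34 in the chalazal endosperm and 6.42 and 3.59 in the micropylar endosperm. It was 2.72 to 3.18 in whole seeds and 5.33 to 7.87 on the remaining arrays. The same ratio for ubiquitin was 5.36 to 12.02 over all arrays, with 8.63 and 8.72 in the chalazal endosperm, and for actin 9.01 to 36.8, with 14.8 and 9.01 there. Both were highest on the array of embryo replicate 1, at 12.02 and 36.8, against 8.05 and 11.1 for embryo replicate 2. The part of these ratios in the results was not tested.

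The 26 plastid genes mostly had their highest levels in the embryo proper and the micropylar endosperm, and their lowest most often in the chalazal seed coat. Of the 6 dissected compartments the micropylar endosperm had the highest mean for 15 genes, the embryo for 10 and the chalazal endosperm for 1, clpP. For 25 of the 26 genes the embryo and the micropylar endosperm were the top pair. The lowest mean lay in the chalazal seed coat for 15 genes, in the chalazal endosperm for 7 and in the general seed coat for 4. In tissue samples a smaller number of plastid-rich cells and less plastid RNA per cell cannot be told apart. The signals come from amplified RNA, and the part of amplification and RNA integrity in them was not tested.

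For 21 of the 26 genes all 4 arrays of the embryo and the micropylar endosperm lay above all 8 arrays of the other 4 compartments, where 4.18% of all probe sets tested did so. This pair of compartments was singled out after the values were seen, so the count is a description. The exceptions were rps14, accD, clpP, rpoA and rpl32. The same separation held for 14 of the 43 plastid photosynthesis probe sets.

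**Figure D1:**
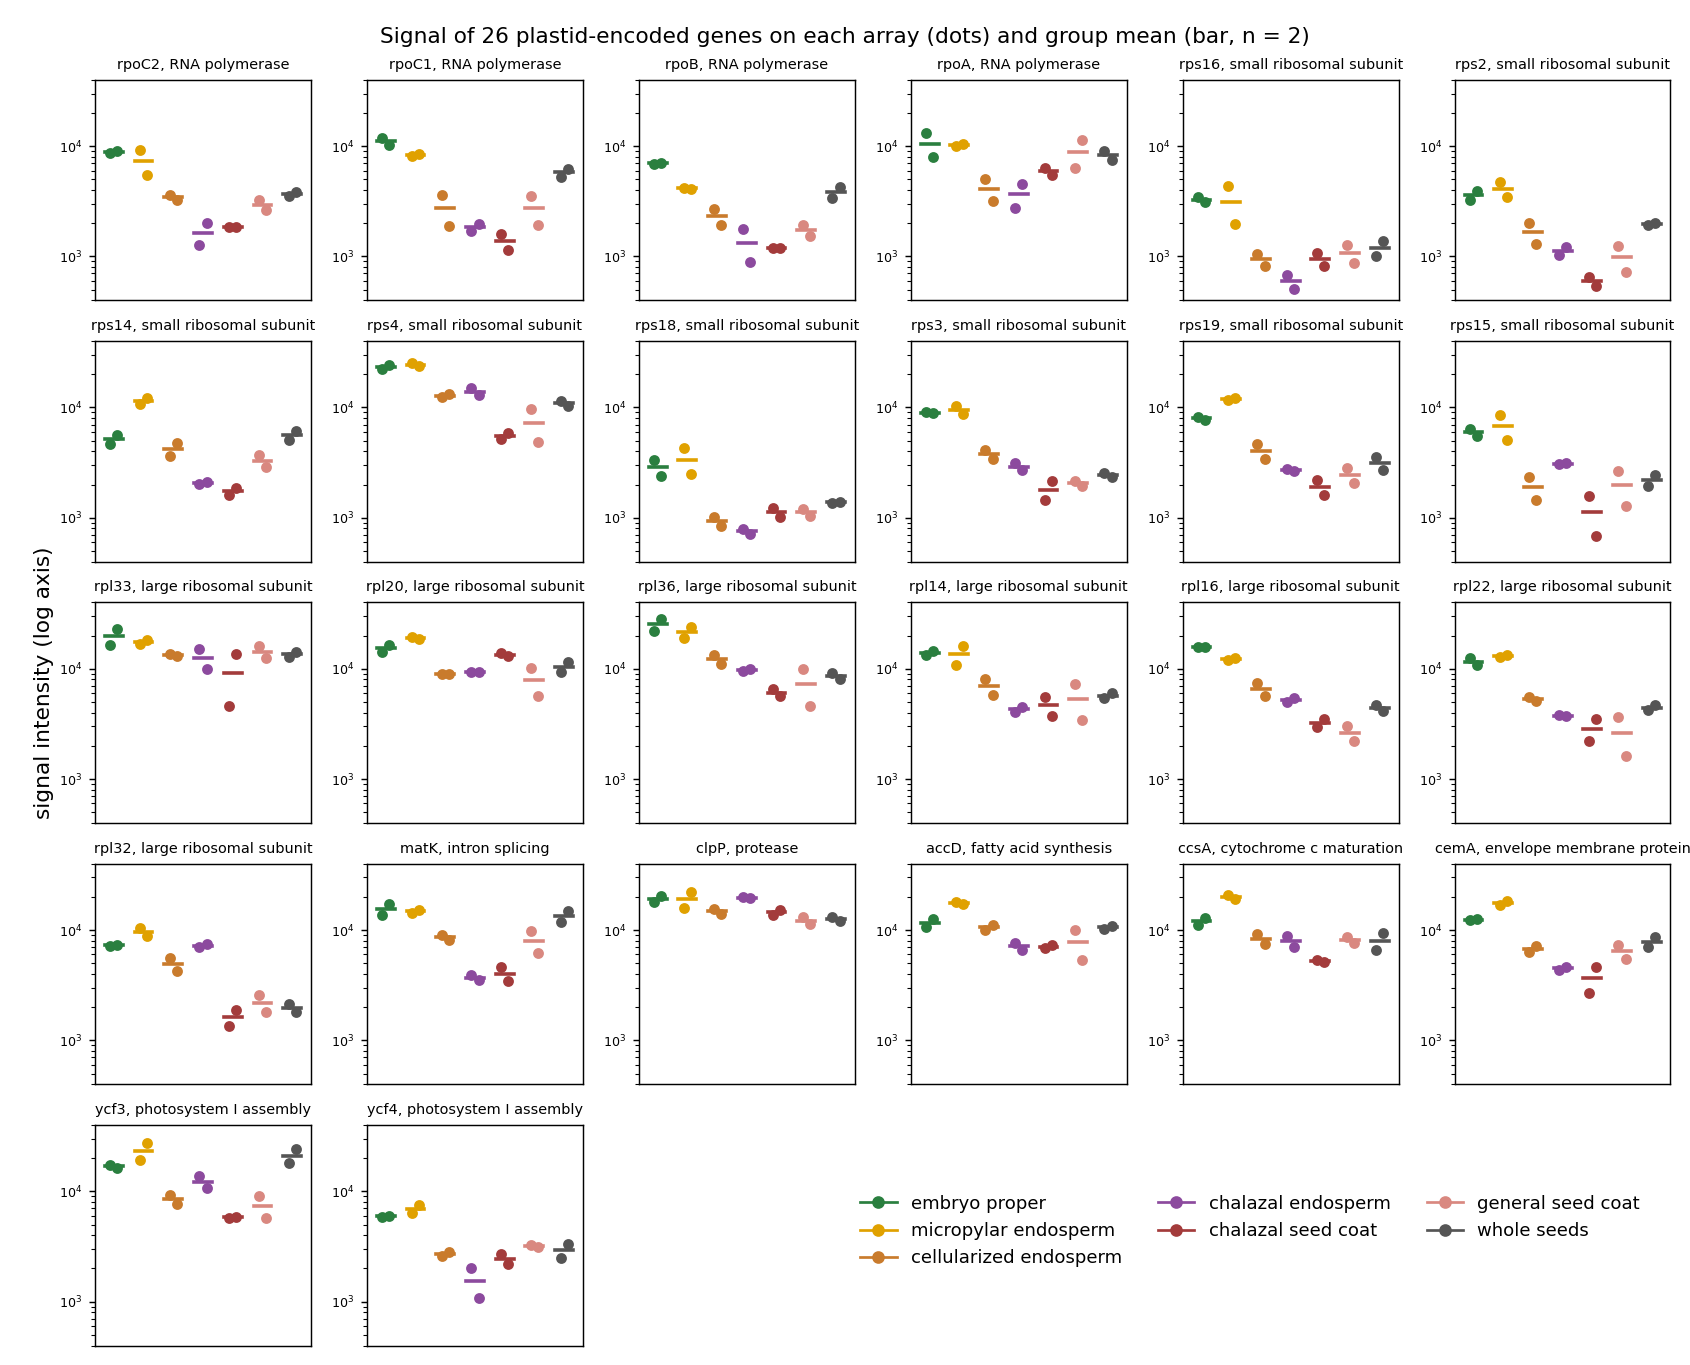
Signal intensity (log axis, the same in every panel) of the 26 plastid-encoded genes on each of the 14 arrays, with the group mean as a bar (n = 2). In 25 of 26 panels the embryo proper and the micropylar endosperm have the highest means among the 6 dissected compartments, and clpP is nearly level.

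In the comparison of each compartment with the mean of the other 5, a gene was called at an adjusted p below 0.05 over the 15951 probe sets tested and a change of at least 2-fold (limma, log2 of signal plus 16). In the embryo 16 of the 26 genes were called higher, against 15.1% of all probe sets tested, and none lower, against 13.4%. All 26 changes were above 0, with a median of 1.16 on the log2 scale against -0.01 for all probe sets. In the micropylar endosperm 21 of the 26 were called higher, against 11.2% of all, and none lower, against 6.80%, with a median of 1.29. Both arrays of the compartment lay above every other compartment array for 3 genes in the embryo (rpoC1, rpoB and rpl16), against 10.2% of all probe sets, and for 10 genes in the micropylar endosperm, against 5.96%. The cellularized endosperm had no call, higher or lower, where 8.18% of all probe sets were called higher and 8.35% lower. At an unadjusted p below 0.05 limma gave 0 genes higher and 4 lower there. Its single gene below an adjusted p of 0.05 was rpoA, at -0.84 on the log2 scale (adjusted p = 0.0336), short of 2-fold.

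Calls in the remaining 3 compartments all went down on the authors' scaling. In the chalazal endosperm 9 genes were called lower and none higher, against 22.9% of all probe sets called lower and 15.8% called higher. The chalazal seed coat had 17 genes called lower and none higher, against 12.7% of all called lower and 13.6% called higher. The general seed coat had 5 called lower and none higher, against 5.69% of all called lower and 10.4% called higher. The count in the chalazal endosperm was 5 without chalazal endosperm replicate 2, and that in the general seed coat was 11 without general seed coat replicate 1 and 3 without replicate 2. The medians over the 26 genes were -0.58, -1.11 and -0.52 in these 3 comparisons. These comparisons share their samples, since each compartment is part of the reference of the other 5.

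The changes were read on the authors' scaling, which set each array's trimmed mean to the same value. Setting the array medians equal moved the median of all probe sets by 0.26 for the cellularized endosperm, 0.23 for the chalazal endosperm, -0.12 for the chalazal seed coat, -0.23 for the general seed coat, -0.24 for embryo against cellularized endosperm and -0.40 for whole seeds. The median of the 26 genes kept its sign in the other single-compartment comparisons and turned from -0.05 to 0.22 in the cellularized endosperm. With equal medians the chalazal endosperm had 1 gene called higher (rpl32) and 4 lower, and the general seed coat 8 lower.

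**Figure D2:**
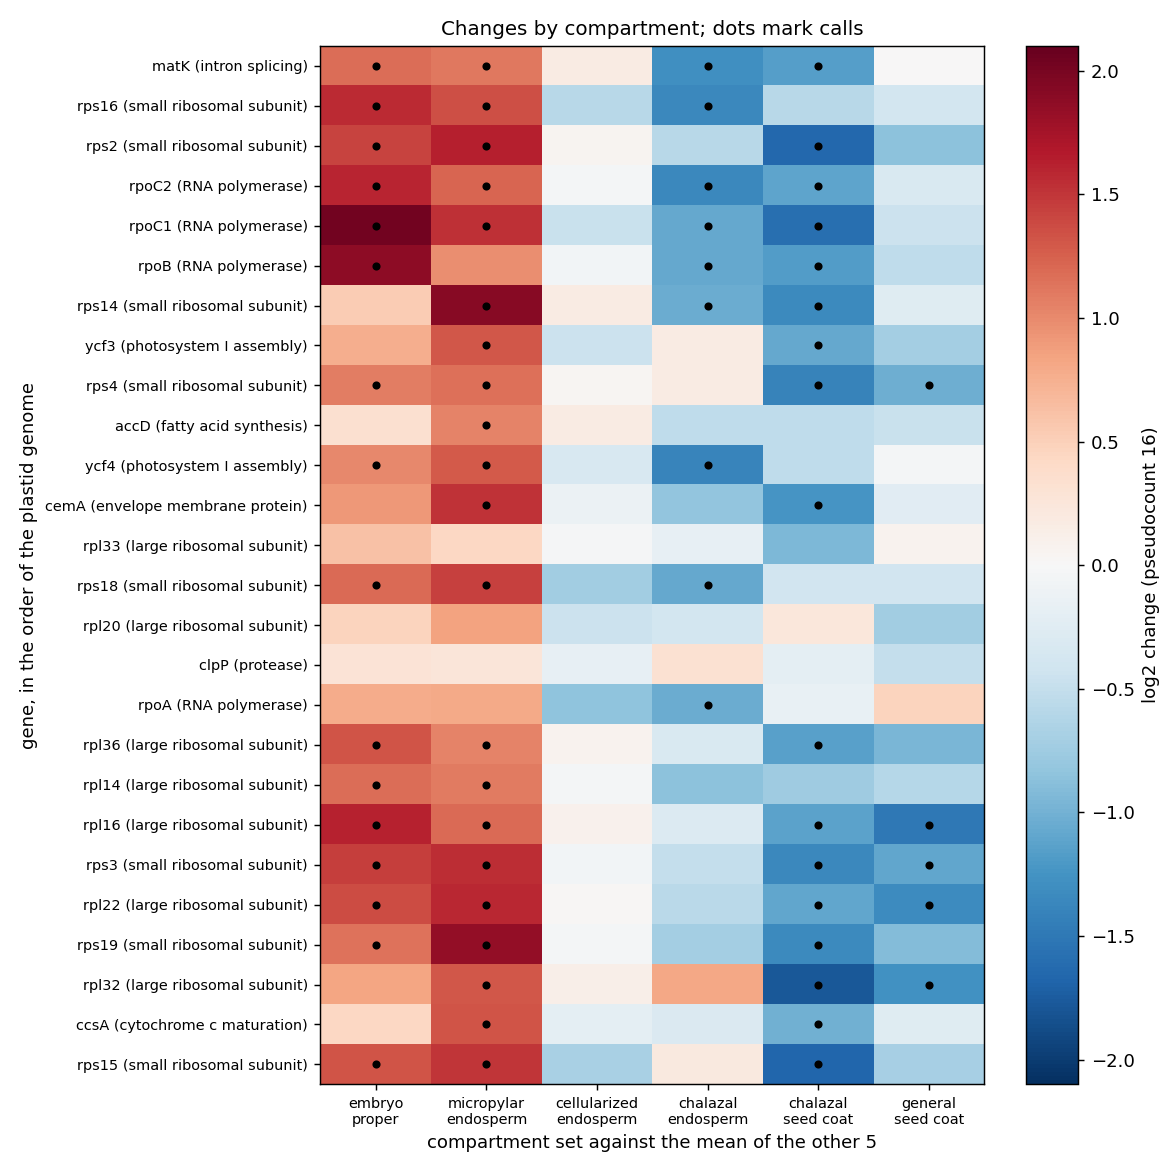
Log2 change of each of the 26 genes in each compartment against the mean of the other 5 (colour, red higher and blue lower), with genes in their order on the plastid genome and a black dot where the change was called. Calls higher stand in the columns of the embryo (16) and micropylar endosperm (21), and calls lower in those of the chalazal endosperm (9), chalazal seed coat (17) and general seed coat (5).

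Of the polymerase genes 3 of 4, rpoC1, rpoB and rpoC2, were called higher in the embryo, against 15.1% of all probe sets tested. The gene rpoC1, for the β′ subunit, read 11893 and 10265 in the embryo, 8213 and 8443 in the micropylar, 3620 and 1874 in the cellularized and 1701 and 1978 in the chalazal endosperm. The signal was 1600 and 1148 in the chalazal seed coat, 3559 and 1946 in the general seed coat and 5282 and 6260 in whole seeds. Both embryo arrays lay above every other array, and the micropylar arrays above the remaining ones. The change in the embryo was 4.08-fold, or 2.03 on the log2 scale (SE 0.27, adjusted p = 2.18e-05), and stayed called under all alternatives run.

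The gene rpoB, for the β subunit, read 6929 and 7087 in the embryo, 4211 and 4103 in the micropylar, 2714 and 1921 in the cellularized and 1788 and 885 in the chalazal endosperm. The seed coat values were 1203 and 1184 in the chalazal and 1940 and 1536 in the general part, and whole seeds read 3391 and 4224. Here too the embryo arrays lay above every other array. The log2 change in the embryo was 1.88 (SE 0.27, adjusted p = 4.25e-05), while the 0.97 in the micropylar endosperm (SE 0.27, adjusted p = 0.0145) fell short of 2-fold.

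For rpoC2, the β″ subunit, the embryo read 8592 and 9113 and the micropylar endosperm 9217 and 5456. The values were 3617 and 3230 in the cellularized endosperm, 1269 and 2005 in the chalazal endosperm, 1832 and 1849 in the chalazal and 3239 and 2631 in the general seed coat, and 3564 and 3852 in whole seeds. The embryo and micropylar arrays overlapped each other and lay above the rest. The log2 changes were 1.60 in the embryo (SE 0.24, adjusted p = 7.76e-05) and 1.22 in the micropylar endosperm (SE 0.24, adjusted p = 0.00154), where the call was lost without micropylar endosperm replicate 1, at 0.84 (adjusted p = 0.121).

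The α subunit gene rpoA did not follow the other 3. It read 13157 and 7956 in the embryo, 10077 and 10543 in the micropylar, 5043 and 3169 in the cellularized and 2739 and 4553 in the chalazal endosperm. The signal was 6311 and 5521 in the chalazal seed coat, 6318 and 11436 in the general seed coat and 9024 and 7483 in whole seeds. One general seed coat array thus lay among the embryo and micropylar arrays. The log2 change was 0.79 in the embryo (SE 0.26, adjusted p = 0.0295), below the 2-fold mark, and 1.15 (adjusted p = 0.0337) without embryo replicate 2. Its change was -0.16 in the chalazal seed coat and 0.47 in the general seed coat, where the other 3 subunit genes were at -1.11 to -1.59 and at -0.31 to -0.54. In the plastid genome rpoA heads a row of ribosomal protein genes, while rpoB, rpoC1 and rpoC2 lie next to each other, followed by rps2.

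All 4 polymerase genes were called lower in the chalazal endosperm, against 22.9% of all probe sets tested. The log2 changes were -1.35 for rpoC2 (SE 0.24, adjusted p = 0.000215), -1.08 for rpoB, -1.07 for rpoC1 and -1.05 for rpoA. These calls rested on few arrays apart from rpoC2. Without chalazal endosperm replicate 2 rpoB was at -0.58, and without replicate 1 rpoA was at -0.69 and rpoC1 at -0.96. The call of rpoA was lost without any 1 of 4 arrays and that of rpoC1 without any 1 of 3, arrays of other compartments among them. With equal array medians rpoA, rpoB and rpoC1 stayed lower, at -0.81, -0.84 and -0.82, short of the 2-fold mark.

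Small-subunit ribosomal protein genes were called higher in the micropylar endosperm in all 8 cases, against 11.2% of all probe sets tested. In the embryo 7 were called higher, against 15.1%. Their median log2 change was 1.53 in the micropylar endosperm and 1.26 in the embryo. In the chalazal seed coat 6 of the 8 were called lower, against 12.7% of all probe sets. The chalazal endosperm had 3 called lower, against 22.9%, and the general seed coat 2, against 5.69%. The gene rps2 read 3275 and 3902 in the embryo and 4754 and 3427 in the micropylar endosperm, against 541 to 2014 on the 8 other compartment arrays. Its log2 change was 1.42 in the embryo (SE 0.28, adjusted p = 0.000986) and -1.65 in the chalazal seed coat (SE 0.28, adjusted p = 0.000243).

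The gene rps14, which lies beside the photosystem I gene psaB in the plastid genome, was the exception in the embryo. It read 4700 and 5677 in the embryo, 10811 and 12164 in the micropylar, 3616 and 4795 in the cellularized and 2042 and 2097 in the chalazal endosperm. The values were 1607 and 1872 in the chalazal seed coat, 3707 and 2873 in the general seed coat and 5107 and 6071 in whole seeds. The micropylar arrays lay above all others, and the embryo arrays overlapped those of the cellularized endosperm. Its log2 change was 1.92 in the micropylar endosperm (SE 0.21, adjusted p = 6.44e-06), the highest of the 26 there, and 0.54 in the embryo (SE 0.21, adjusted p = 0.063).

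A related pattern held for rps19, with 8113 and 7762 in the embryo and 11733 and 12136 in the micropylar endosperm, both above the 1613 to 4619 of the other compartments. Its log2 change was 1.85 in the micropylar endosperm (SE 0.22, adjusted p = 1.55e-05) and 1.15 in the embryo (SE 0.22, adjusted p = 0.000835). The gene rps4 read 22250 and 24223 in the embryo and 25186 and 23557 in the micropylar endosperm. It read 5198 and 5924 in the chalazal and 9733 and 4854 in the general seed coat, below the 12349 to 14888 of the cellularized and chalazal endosperm. Its change in the general seed coat, -1.03 (SE 0.20, adjusted p = 0.00149), was lost without general seed coat replicate 2, at -0.53 (adjusted p = 0.118).

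The genes rps16 and rps18 were lowest in the chalazal endosperm. For rps16 the arrays read 684 and 510 there, 1059 and 823 in the cellularized endosperm, and 813 to 1263 over the 4 seed coat arrays, against 3438 and 3098 in the embryo. Its micropylar replicates were far apart, at 4319 and 1952, and the call there (log2 change 1.36, SE 0.32, adjusted p = 0.00537) was lost without micropylar endosperm replicate 1, at 0.79 (adjusted p = 0.282). For rps18 the calls in the embryo and micropylar endosperm, 1.19 (adjusted p = 0.00364) and 1.43 (adjusted p = 0.00142), were lost at 0.94 (adjusted p = 0.117) without embryo replicate 1 and at 1.05 (adjusted p = 0.109) without micropylar endosperm replicate 1. Those of rps15, 1.32 (adjusted p = 0.00493) and 1.51 (adjusted p = 0.00311), were lost without the same arrays at 1.22 (adjusted p = 0.0902) and 1.14 (adjusted p = 0.143).

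Large-subunit genes were less uniform. In the embryo 4 of the 7 were called higher, against 15.1% of all probe sets tested, and in the micropylar endosperm 5, against 11.2%. The medians were 1.18 and 1.09, and rpl20 and rpl33 were called in neither. In the chalazal seed coat 4 were called lower, against 12.7% of all probe sets, and in the general seed coat 3, against 5.69%. None was called lower in the chalazal endosperm, against 22.9%. The gene rpl16 read 15587 and 15644 in the embryo, 12018 and 12476 in the micropylar, 7482 and 5627 in the cellularized and 4977 and 5465 in the chalazal endosperm. It read 2943 and 3511 in the chalazal seed coat, 3018 and 2212 in the general seed coat and 4652 and 4157 in whole seeds. No array of one filial compartment overlapped another filial compartment, and both seed coats lay below all of them. The log2 change was 1.61 in the embryo (SE 0.20, adjusted p = 1.03e-05) and -1.49 in the general seed coat (SE 0.20, adjusted p = 2.84e-05), and both calls held under all alternatives run.

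The gene rpl32 separated filial from maternal tissue. It read 7209 and 7325 in the embryo, 10467 and 8757 in the micropylar, 5586 and 4227 in the cellularized and 7004 and 7402 in the chalazal endosperm. The seed coats read 1359 and 1891 in the chalazal and 2572 and 1802 in the general part, and whole seeds 2136 and 1812. The chalazal endosperm thus overlapped the embryo here, and whole seeds overlapped the seed coats. The log2 change was -1.78 in the chalazal seed coat (SE 0.22, adjusted p = 1.03e-05), the lowest of the 26, and -1.27 in the general seed coat (SE 0.22, adjusted p = 0.00052). In the chalazal endosperm it was 0.81 (SE 0.22, adjusted p = 0.00753), and with equal array medians 1.05, past the 2-fold mark. The neighbouring gene on the plastid genome, ccsA, was at -0.30 there.

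The genes rpl20 and rpl33 varied less. For rpl20 the chalazal seed coat, at 13813 and 13009, lay above the cellularized (8895 and 9017) and chalazal endosperm (9376 and 9302) and the general seed coat (10248 and 5704), which is not the order of most of the 26 genes. Its log2 change in the chalazal seed coat was 0.24 (SE 0.19, adjusted p = 0.377), the only one above 0 there. For rpl33 the chalazal seed coat replicates read 4606 and 13526, and the change of -0.94 (adjusted p = 0.015) became -1.71 (adjusted p = 0.000198) without chalazal seed coat replicate 2.

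Of the genes outside transcription and translation, clpP, for a proteolytic subunit of the plastid Clp protease, was the most even. It read 18046 and 20314 in the embryo, 15977 and 22221 in the micropylar, 15475 and 14011 in the cellularized and 19797 and 19322 in the chalazal endosperm. It read 13730 and 15202 in the chalazal seed coat, 13059 and 11247 in the general seed coat and 13108 and 12038 in whole seeds. The highest compartment mean was 1.61 times the lowest, and clpP was the only one of the 26 genes under 2-fold by this measure. It was called in no comparison. For its nuclear partner CLPP4, another subunit of the same protease, the embryo read 2695 and 2530 and the chalazal endosperm 665 and 494, with 769 to 1958 on the other compartment arrays. CLPP4 was higher in the embryo by 1.31 (SE 0.30, adjusted p = 0.00321) and lower in the chalazal endosperm, at -1.28 (SE 0.30, adjusted p = 0.00264), on the log2 scale. The other measured locus of the same protease list was called in neither, with log2 changes of 0.77 (adjusted p = 0.133) and 0.48 (adjusted p = 0.329). Of 65 nuclear loci listed as partners of the plastid machinery, 12 had a probe set of their own and CLPP4 alone carried a gene name in the annotation used, so the others are counted but not named. Of the 11 that entered the tests 9 were called higher in the embryo, against 15.1% of all probe sets tested. In the micropylar endosperm 6 were called higher, against 11.2%, and in the cellularized endosperm 2, against 8.18%. None was called in the general seed coat, where 10.4% of all were called higher and 5.69% lower. The chalazal endosperm had 9 called lower, against 22.9%, and the chalazal seed coat 10, against 12.7%.

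The gene accD encodes the plastid subunit of acetyl-CoA carboxylase, which makes the precursor of fatty acids. It read 10710 and 12684 in the embryo and 17929 and 17133 in the micropylar endosperm. It read 10049 and 11197 in the cellularized endosperm, 7590 and 6603 in the chalazal endosperm, 6861 and 7290 in the chalazal seed coat, 10060 and 5404 in the general seed coat and 10217 and 10965 in whole seeds. The embryo overlapped the cellularized endosperm. The log2 change was 1.03 in the micropylar endosperm (SE 0.20, adjusted p = 0.00139), near the 2-fold mark and 0.94 without general seed coat replicate 2.

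The maturase gene matK, which serves intron splicing of plastid RNAs, read 13752 and 17188 in the embryo and 14360 and 15103 in the micropylar endosperm. It read 8964 and 8188 in the cellularized and 3871 and 3489 in the chalazal endosperm, 4585 and 3444 in the chalazal and 9878 and 6143 in the general seed coat, and 11928 and 14790 in whole seeds. Both chalazal tissues were thus low, and the general seed coat overlapped the cellularized endosperm. The log2 change was 1.18 in the embryo (SE 0.20, adjusted p = 0.000276), -1.29 in the chalazal endosperm (SE 0.20, adjusted p = 6.16e-05) and -1.16 in the chalazal seed coat (SE 0.20, adjusted p = 0.0003). The last was at -0.95 without chalazal seed coat replicate 2, and the first at 0.96 without the chalazal endosperm.

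The genes ccsA, for attaching heme to cytochrome c, and cemA, for a membrane protein of the plastid envelope, had their highest values in the micropylar endosperm. There ccsA read 20975 and 19259 and cemA 16699 and 18270, against 11195 and 12851 and against 12225 and 12460 in the embryo. The micropylar arrays of both genes lay above all others. The log2 changes were 1.32 for ccsA (SE 0.19, adjusted p = 7.1e-05) and 1.52 for cemA (SE 0.21, adjusted p = 5.4e-05). In the embryo ccsA was at 0.43 and cemA at 0.92, neither past the 2-fold mark. In the chalazal seed coat cemA was at -1.25 (SE 0.21, adjusted p = 0.000194), and at -0.86 without chalazal seed coat replicate 1. There ccsA (adjusted p = 0.000525) sat at the 2-fold mark and lost its call without any 1 of 6 arrays.

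The genes ycf3 and ycf4 encode assembly factors of photosystem I and differed in the chalazal endosperm. There ycf3 read 13658 and 10612 and was at 0.18 on the log2 scale (SE 0.20, adjusted p = 0.512). By contrast ycf4 read 2003 and 1072, the lowest of the compartments, and was at -1.39 (SE 0.24, adjusted p = 0.000188), or at -0.95 without chalazal endosperm replicate 2. Both were higher in the micropylar endosperm, by 1.30 and 1.28 on the log2 scale. In the embryo ycf4 sat at 1.01 (SE 0.24, adjusted p = 0.0043) and lost its call without any 1 of 6 arrays, embryo replicates 1 and 2 among them.

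The 26 genes and the plastid photosynthesis genes were set side by side in the same comparisons. In the embryo 4 of the 43 photosynthesis probe sets were called higher, against 15.1% of all probe sets tested. Their median log2 change was 0.29 beside the 1.16 of the 26 genes. In the micropylar endosperm 30 of 43 were called higher, against 11.2% of all, and both medians were 1.29. In the chalazal seed coat 30 of 43 were called lower, against 12.7% of all, with medians of -1.13 for photosynthesis and -1.11 for the 26 genes. The medians were -0.15 and -0.58 in the chalazal endosperm and -0.26 and -0.52 in the general seed coat. In the chalazal endosperm 2 photosynthesis probe sets were called lower, against 22.9% of all. In the general seed coat 1 was called lower, against 5.69%, and 1 higher, against 10.4%. The difference between both lists was not tested.

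Within single arrays the log2 ratio of the median of the 26 genes to that of the 43 photosynthesis probe sets was 0.50 and 0.09 in the embryo and 0.29 and 0.18 in the chalazal seed coat. It was below 0 on the remaining 10 arrays, from -0.26 to -0.92, with the lowest value in the general seed coat. The ratio mixes probe sets of unequal brightness, so only its order across arrays can be read. Of these the embryo had high levels of the 26 genes and the chalazal seed coat low levels of both lists.

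**Figure D3:**
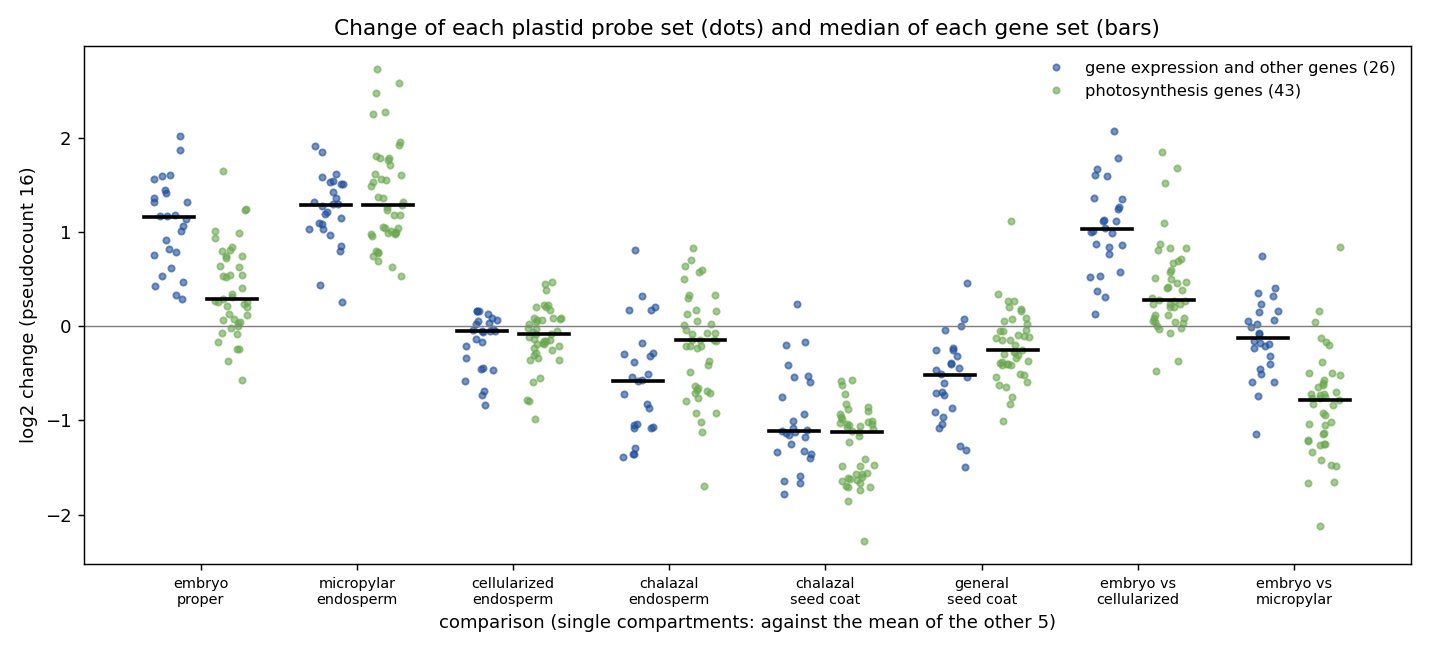
Log2 change of every plastid probe set (dots) in 8 comparisons, with the gene expression and other genes in blue (26) and the photosynthesis genes in green (43), and the median of each list as a black bar. In the embryo the medians are 1.16 and 0.29, in the micropylar endosperm both are 1.29, and for embryo against micropylar endosperm they are -0.12 and -0.78.

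Set directly against the cellularized endosperm, its filial neighbour without calls of its own, the embryo had 15 of the 26 genes called higher, against 7.98% of all probe sets tested, and none lower, against 7.33%. Both embryo arrays lay above both cellularized endosperm arrays for 24 of the 26, where 31.8% of all probe sets did so. All 4 polymerase genes were called, with rpoC1 at 2.08 (SE 0.35, adjusted p = 0.000501), rpoB at 1.61, rpoC2 at 1.37 and rpoA at 1.35 on the log2 scale. Of the photosynthesis probe sets 3 of 43 were called higher. The count of 15 fell to 8 with equal array medians and to 5 without the variance trend. It also depended on single arrays, since it was 5 without embryo replicate 1, 7 without embryo replicate 2 and 2, rpl16 and rpoC1, without cellularized endosperm replicate 2.

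Against the micropylar endosperm, a comparison added after the values were seen, the embryo differed in 1 of the 26 genes, against 8.60% of all probe sets called lower and 6.66% called higher. This was rps14, lower in the embryo at -1.15 on the log2 scale (SE 0.28, adjusted p = 0.00826). The call was lost without embryo replicate 1, at -1.01 (adjusted p = 0.0877), and without micropylar endosperm replicate 2, at -1.06 (adjusted p = 0.074). The median over the 26 genes was -0.12. The changes ran from 0.75 for rpoB (SE 0.34, adjusted p = 0.157) to -0.74 for ccsA (SE 0.24, adjusted p = 0.0433) apart from rps14. Of the photosynthesis probe sets 16 of 43 were called lower in the embryo, with a median of -0.78.

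Within the endosperm, the chalazal region had 3 of the 26 genes called lower than the cellularized endosperm, against 18.0% of all probe sets tested, and none higher, against 14.1%. These were matK at -1.22 (SE 0.26, adjusted p = 0.00154) and rpoC2 at -1.09 (SE 0.31, adjusted p = 0.0115) on the log2 scale, and rps14, just past the 2-fold mark (SE 0.28, adjusted p = 0.00901). The call of matK held under all alternatives. That of rpoC2 was lost at -0.77 without chalazal endosperm replicate 1 and at -1.01 without cellularized endosperm replicate 1. That of rps14 was lost at -0.80 without cellularized endosperm replicate 2 and at -0.98 without chalazal endosperm replicate 1.

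Between the parts of the seed coat no gene was called, chalazal against general, where 6.29% of all probe sets were called higher and 8.32% lower. At an unadjusted p below 0.05 limma gave 1 gene higher and 7 lower. An adjusted p below 0.05 with less than 2-fold change was reached by 4 genes. These were matK at -0.97 (adjusted p = 0.0176), rps14 at -0.91 (adjusted p = 0.0331), cemA at -0.85 (adjusted p = 0.0409) and rpl20 at 0.81 (adjusted p = 0.0356) on the log2 scale. Without general seed coat replicate 2, 4 genes were called lower, cemA, rps14 and matK among them, and without replicate 1 rpl20 was called higher, at 1.23 (adjusted p = 0.00388). Without chalazal seed coat replicate 1 or 2, 1 and 2 genes were called lower. For the photosynthesis genes 15 of 43 were called lower in the chalazal part.

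Both seed coat parts together lay below all filial tissue for 5 genes. For rps4, rpl16, rps3, rpl22 and rpl32 all 4 seed coat arrays read below all 8 embryo and endosperm arrays, where 1.65% of all probe sets tested did so. The gene rps3 read 1447 to 2175 over the seed coat arrays and 2683 to 10293 over the filial ones. For rpl22 these ranges were 1620 to 3655 and 3689 to 13400. Of the 5 genes rpl16, rps3 and rpl22 are neighbours on the plastid genome. They were the same 5 genes that were called lower in the general seed coat, but both counts use the same arrays and are not independent. In the general seed coat rps3 was at -1.08 (SE 0.22, adjusted p = 0.00173) and rpl22 at -1.32 (SE 0.25, adjusted p = 0.00122). The latter was at -0.73 without general seed coat replicate 2.

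Calls were also laid out along the plastid genome, as a description without a test of likeness between neighbours. In the stretch that holds, in this order, rpl36, rpl14, rpl16, rps3, rpl22 and rps19 all 6 genes were called higher in both the embryo and the micropylar endosperm, while rpoA at its head was called in neither, beside 16 and 21 called of all 26. Of the stretch with rpl33, rps18, rpl20 and clpP only rps18 was called in those compartments. Whether neighbours share transcripts was not tested.

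Whole seeds lay within the range of the 6 compartment means for all 26 genes. Against the mean of the compartments 1 gene was called lower, rpl32 at -1.19 on the log2 scale (SE 0.22, adjusted p = 0.00182), against 2.79% of all probe sets. None was called higher, against 6.95%. Without whole seeds replicate 2 rpl32 was at -1.07 (adjusted p = 0.0744). The gene ycf3 was at 0.94 (SE 0.20, adjusted p = 0.00507) and matK at 0.77 (SE 0.20, adjusted p = 0.0176), both below 2-fold, and ycf3 was at 1.16 (adjusted p = 0.024) without whole seeds replicate 1.

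A further 7 probe sets name several plastid genes outside photosynthesis, 6 genes in all, and were not counted among the 26. In the embryo 3 of the 7 were called higher, against 15.1% of all probe sets tested, and in the micropylar endosperm 4, against 11.2%. In the chalazal seed coat 4 were called lower, against 12.7%, and in the general seed coat 2, against 5.69%. For 6 of the 7 the 4 embryo and micropylar arrays lay above the other 8 compartment arrays, against 4.18% of all. The genes of the mitochondrion, another organelle with its own genome, were matched by symbol to 18 probe sets, of which 15 entered the tests. Of these 1 was called higher in the embryo, against 15.1% of all probe sets tested. The chalazal endosperm also had 1 called higher, against 15.8%, and the general seed coat 1, against 10.4%. In the chalazal seed coat 7 were called higher, against 13.6%, and the median log2 change was 0.96. In the micropylar endosperm 1 was called lower, against 6.80%, and in the cellularized endosperm 2, against 8.35%, with a median of -0.65 in the latter.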

How the data were processed

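Signal intensity values were deposited by the authors per array (Affymetrix ATH1, made with GCOS per the submitters' processing notes) and lie on a linear scale. The trimmed mean without the lowest and highest 2% of probe sets was 500 on each array. Per the labels' protocols, RNA was treated with DNase and 2 to 5 ng were amplified. Genes were named from the platform annotation and RefSeq TAIR10.1, which gave neighbours. Of 22746 probe sets outside the controls, the 15951 at or above the array median on at least 2 arrays were tested on log2(signal + 16) with limma 3.58.1 (R 4.3.3), 1 mean per group, 7 residual degrees of freedom, trended variances and Benjamini-Hochberg adjustment. A fold change on this scale understates that of dim genes. Any of the 26 genes could be named, and lists and members were chosen with earlier results of these data known. The fits were also run on simulated data with independent noise and changes in the embryo alone, a simpler setting than these arrays. Alternatives covered the pseudocount, the filter, the scaling, the variance trend, a replicate block, probe sets that match several transcripts, the chalazal endosperm or the whole seeds left out, and each array left out in turn.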

Additional observations from a re-analysis of the deposited data

How the results depend on the processing

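No called gene changed direction under the alternatives run, 25 for most comparisons and 24 for those of the chalazal endosperm and the whole seeds. Of the calls, 11 of 16 in the embryo, 13 of 21 in the micropylar endosperm, 2 of 9 in the chalazal endosperm, 10 of 17 in the chalazal seed coat and 2 of 5 in the general seed coat held under all of them. With equal array medians the chalazal endosperm had 1 gene higher and 4 lower, the general seed coat 8 lower, embryo against cellularized endosperm 8 higher and whole seeds 2 lower. The share of higher calls among all probe sets called then went from 49.5% to 65.1% in the cellularized endosperm, 40.7% to 50.8% in the chalazal endosperm, 64.5% to 47.8% in the general seed coat, 52.1% to 37.3% for embryo against cellularized endosperm and 71.3% to 32.2% in whole seeds. With quantile normalization the general seed coat had 3 lower and chalazal against general seed coat 1 lower. Without the variance trend chalazal against cellularized endosperm had 1 lower, embryo against cellularized endosperm 5 higher and embryo against micropylar endosperm 0 lower. Without the chalazal endosperm the cellularized endosperm had 1 lower (rpoA) and the general seed coat 8 lower. Leaving out 1 array at a time gave 2 to 15 higher for embryo against cellularized endosperm, 0 to 1 lower for embryo against micropylar endosperm, 0 to 1 lower in the cellularized endosperm, 5 to 9 lower in the chalazal endosperm, 0 to 1 higher and 0 to 4 lower for chalazal against general seed coat, 3 to 11 lower in the general seed coat, and 0 to 1 higher and 0 to 1 lower in whole seeds. Over 21 pairs of groups the deviations of same-numbered replicates correlated at -0.11 to 0.15, so the numbers were not taken as pairs, and the replicate block left the counts at 16 in the embryo and 21 in the micropylar endosperm and changed no count of the 26 genes. Changes not called were followed for only part of the genes and comparisons, so the crossings of 0 given here are not a full list. The change of accD crossed 0 in embryo against cellularized endosperm (-0.12 with equal medians, -0.023 with quantile normalization). In the chalazal endosperm rpl33 (0.067 with equal medians, and -0.47 to 0.115 with 1 array left out) and ycf3 (-0.005 to 0.358 with 1 array left out) did so. In the cellularized endosperm the median of the 26 genes went from -0.05 to 0.22 with equal medians, so uncalled genes crossed 0 there too. Counts over all probe sets went as low as 1145 from 2406 higher in the embryo and 763 from 1794 higher in the micropylar endosperm with 1 array left out, and over all alternatives ran from 417 to 1453 around 908 lower in the general seed coat and from 97 to 1065 around 445 lower in whole seeds. The causes were not tested. A group of 1 array was assumed to vary like the others.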
